A study of Mus musculus with 2 samples.

Results

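The interferon response genes described here are 39 genes of mouse heart nuclei, taken by symbol from the 32589 genes of the count tables and kept in a list of 29 type I-linked genes and a list of 10 gamma-linked genes. A row was present for 37 of them, and Mx1 and Mx2 were not analysed here. Gbp4 and Igtp had rows in which every value was 0, so that 35 members, 27 type I-linked and 8 gamma-linked, had at least 1 unique molecular identifier (UMI, the tag that marks 1 captured RNA molecule). Male C57BL/6 mice, 8 weeks old at the start, received either PBS (Control group) or the InVivoPlus anti-mouse PD-1 antibody at 5 mg/kg into the peritoneum on days 1 and 14 of a 28-day cycle (PD-1 inhibitor group). PD-1 is an inhibitory receptor of T cells, and the antibody blocks it. No transgene, deletion or further agent is named for either group. Single nucleus RNA sequencing of hearts gave 1 library per group, and how many hearts were pooled in each is not stated in the sources used here. There was therefore no replicate, no difference between the groups was tested, and every interval given is an exact 95% interval that covers counting error alone.

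Interferons are secreted alarm signals of antiviral and anticancer defence. Type I interferons bind a receptor found on nearly every cell and act through the factor ISGF3, which contains STAT2 and IRF9 and binds the interferon-stimulated response element (ISRE) in front of its target genes, whereas interferon gamma, made mainly by T cells and natural killer cells, acts on the gamma-activated site (GAS) and through IRF1. Resident cells of the heart carry both receptors, and interferon gamma from T cells is among the signals studied in myocarditis under PD-1 blockade.

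The promoter is where both signals reach these genes, so stretches of 150 bases that end at the base before the transcription start are shown for 6 members whose values are described below. They are the RefSeq starts of GRCm38.p6, read 5′ to 3′ on the strand of the gene, with every ISRE core (GAAA, any 2 bases and GAAA, on either strand) and GAS (TTCNNNGAA, which reads alike on both strands) in capitals. Isg15 lies at chr4:156200819-156200968 on the minus strand, Rsad2 at chr12:26456453-26456602 on the minus strand, Ifit1 at chr19:34640739-34640888 on the plus strand, Bst2 at chr8:71537473-71537622 on the minus strand, Gbp7 at chr3:142530186-142530335 on the plus strand and Irf1 at chr11:53769864-53770013 on the plus strand.
Isg15: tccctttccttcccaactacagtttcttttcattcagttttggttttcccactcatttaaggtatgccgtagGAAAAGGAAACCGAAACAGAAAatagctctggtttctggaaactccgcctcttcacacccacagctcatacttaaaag
Rsad2: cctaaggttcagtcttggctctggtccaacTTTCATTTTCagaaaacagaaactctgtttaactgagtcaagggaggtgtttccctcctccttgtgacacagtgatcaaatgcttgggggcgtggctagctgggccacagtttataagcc
Ifit1: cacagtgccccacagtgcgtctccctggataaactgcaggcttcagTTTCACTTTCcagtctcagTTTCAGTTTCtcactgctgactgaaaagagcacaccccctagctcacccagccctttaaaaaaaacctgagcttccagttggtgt
Bst2: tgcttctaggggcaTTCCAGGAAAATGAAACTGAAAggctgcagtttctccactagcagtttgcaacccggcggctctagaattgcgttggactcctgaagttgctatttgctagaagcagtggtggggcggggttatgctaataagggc
Gbp7: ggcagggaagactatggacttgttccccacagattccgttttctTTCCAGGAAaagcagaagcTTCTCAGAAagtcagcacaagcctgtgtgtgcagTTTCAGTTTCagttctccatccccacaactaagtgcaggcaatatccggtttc
Irf1: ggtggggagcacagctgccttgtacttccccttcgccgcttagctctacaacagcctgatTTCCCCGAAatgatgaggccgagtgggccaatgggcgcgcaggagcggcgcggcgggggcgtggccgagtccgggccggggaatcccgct

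In Isg15 the capitals join 3 overlapping ISRE cores. In Bst2 they join 2 overlapping ISRE cores and a GAS, which overlaps only the first of these cores. Ifit1 has 2 separate ISRE cores, Rsad2 has 1, Gbp7 has 1 ISRE core and 2 GAS, and Irf1 has 1 GAS. Irf1 has another RefSeq start whose window held neither motif, and the start with the most matches is shown. A window from 250 bases before to 50 bases after the start was present for 31 of the 39 members. The ISRE core was found in 12 of 22 type I-linked and 6 of 9 gamma-linked members with a window, against 3.99% of 27025 genes. The GAS was found in 7 of 22 and 5 of 9, against 9.55% of all genes. A match is a description of the letters alone.

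In the plot of member levels, most of the 35 members left UMIs in every large cell type of both libraries. Nuclei were assigned to cell types from marker genes after clustering without the members and the other genes of the pathway. They were endothelial cells (ECs, 2815 control and 2514 PD-1 inhibitor nuclei), fibroblasts (2475 and 1971), cardiomyocytes (CMs, 1274 and 1081), mononuclear phagocytes (MPs, 1256 and 883), mural cells (593 and 421), mesothelial cells (480 and 462), T cells (239 and 193), B cells (206 and 93), adipocytes (154 and 16) and glial cells (30 and 10). Each type carried its own markers, but markers of CMs summed to between 1961 and 6280 UMIs per 1000000 UMIs of all genes in that type and library (CPM) in the other types, against 67598 and 71061 CPM in CMs, and MP markers to between 107 and 966 CPM outside MPs. EC markers summed to between 268 and 2705 CPM outside ECs, against 12527 and 12693 CPM in ECs. In B cells they were 1731 CPM in the control and 2705 CPM in the PD-1 inhibitor library. The part of such RNA from other cells in the low levels below was not tested. The libraries shared 48 barcodes (95 nuclei kept). Without these nuclei none of 18 list ratios moved by more than 0.0167 on the log2 scale, and none of the 17 member ratios that passed the size rule given below with an interval off 0 moved by more than 0.0822.

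**Figure D1:**
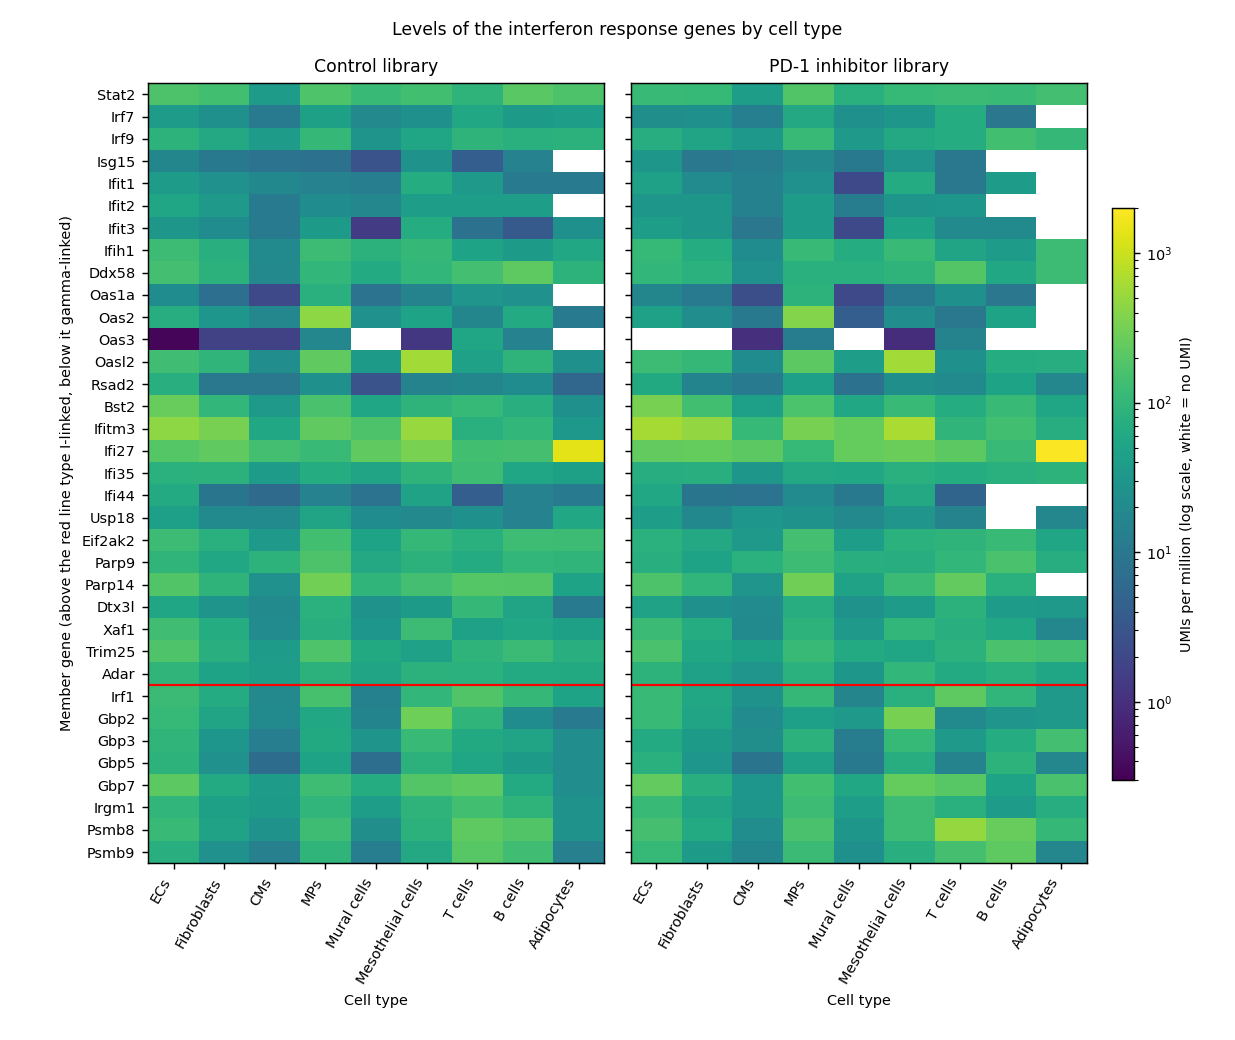
Level of the 35 members with UMIs (rows, type I-linked above the red line and gamma-linked below it) in 9 cell types (columns) of the Control library (left panel) and the PD-1 inhibitor library (right panel), as CPM on a log colour scale, with white for no UMI. Oas2 is brightest in MPs (448 and 389 CPM), Oasl2 in mesothelial cells (592 and 585 CPM) and Ifi27 in adipocytes (1413 and 1873 CPM).

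Summed over all nuclei, the type I-linked list was near the same level in both libraries, while the gamma-linked list was higher in the PD-1 inhibitor library. Over all nuclei the type I-linked UMIs summed to 2146 CPM in the control and 2222 CPM in the PD-1 inhibitor library, which gave a log2 ratio of 0.05 (interval 0.02 to 0.08). The gamma-linked UMIs summed to 561 and 657 CPM, a log2 ratio of 0.23 (0.18 to 0.28). Counting error leaves 0 outside both intervals, yet the difference between hearts of 1 group is unknown. The gamma-linked ratio over all nuclei was above that of ECs, fibroblasts, CMs, MPs, mural cells and mesothelial cells each taken alone. The mix of types differed, with mesothelial cells at 5.04% of control and 6.04% of PD-1 inhibitor nuclei. Under 13 alternatives, 1 of them the same mix of clusters in both libraries, this gamma-linked ratio ran from 0.157 to 0.263. Throughout, a log2 ratio is the PD-1 inhibitor CPM over the control CPM, with 0.5 UMI added to each count, so that positive values are higher in the PD-1 inhibitor library.

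Among the 6 types with over 400 nuclei in each library the type I-linked sums ran from 799 and 931 CPM in CMs to 3128 and 3064 CPM in MPs. Glial cells (30 and 10 nuclei) had 3770 and 2389 CPM, and adipocytes 2570 and 3068 CPM. ECs held 2986 and 2930 CPM of type I-linked UMIs and mesothelial cells 3030 and 3012 CPM, ratios of -0.03 (-0.07 to 0.02) and -0.01 (-0.09 to 0.07). In these 3 richest of the large types the libraries did not differ beyond counting error. CMs were lowest and had a ratio of 0.22 (0.13 to 0.31), the largest of the 6 types from ECs to mesothelial cells, and fibroblasts had 1873 and 1964 CPM, a ratio of 0.07 (0.01 to 0.12). Gamma-linked sums were highest in T cells, at 1189 and 1224 CPM, and mesothelial cells had 1023 and 1172 CPM and ECs 916 and 982 CPM. CMs were lowest among the large types here too, at 174 and 181 CPM. The gamma-linked ratio was 0.20 (0.07 to 0.33) in mesothelial cells, 0.17 (0.05 to 0.30) in fibroblasts and 0.10 (0.03 to 0.18) in ECs, and its interval held 0 in CMs, MPs, mural cells, T cells and B cells. In adipocytes the gamma-linked sum rested on 71 control and 33 PD-1 inhibitor UMIs, the latter from 16 nuclei, and the ratio was 1.59 (0.94 to 2.20).

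**Figure D2:**
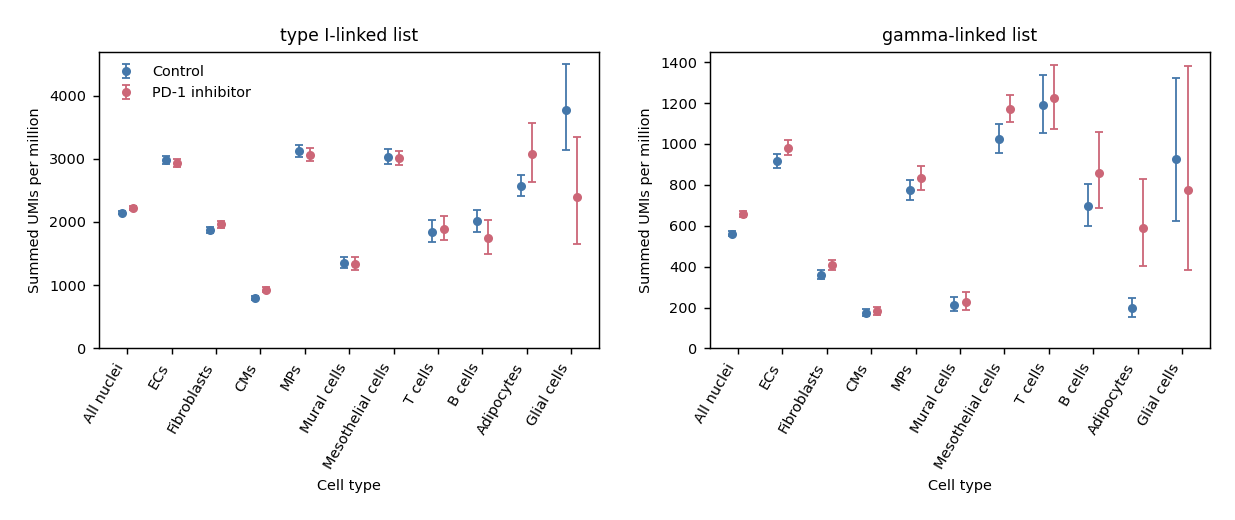
Summed CPM of the type I-linked and the gamma-linked list by cell type in the Control and the PD-1 inhibitor library, each point with its exact Poisson interval for counting error. In ECs, MPs and mesothelial cells the type I-linked points of both libraries lie between 2930 and 3128 CPM, and CMs lie lowest in both lists.

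The sums hid members that lay on opposite sides. In ECs 6 of 26 counted type I-linked members had a ratio above 0 and 20 below it, with a median of -0.17, although the summed ratio was -0.03. The median of all 10709 genes counted in ECs was 0.01, and 50.6% of them lay above 0. The mix of EC clusters differed between the libraries. The cluster led by Aplnr and Gm12002 (3850 and 3913 CPM of the list) had 987 control and 699 PD-1 inhibitor nuclei. That led by Sall1 and Nrg1 (2488 and 2618 CPM) had 1380 and 1482. With the same mix of clusters in both libraries the summed EC ratio was 0.04. The part of the mix in the split of EC members was not tested. Ifitm3 alone supplied 15.03% of the EC type I-linked UMIs in the control and 20.9% in the PD-1 inhibitor library. Fibroblasts (summed ratio 0.07) had 10 of 25 counted type I-linked members above 0, 15 below it and a median of -0.09. The Ifitm3 share of their list was 17.8% (control) and 24.3% (PD-1 inhibitor). CMs (summed ratio 0.22) had 12 of 21 above 0, 9 below it and a median of 0.09. Ifi27, at 0.58 in CMs, made up 17.9% and 23.0% of their list, and Ifitm3 stood at 0.89. Sums without these members were not computed. Over all nuclei 7 of 8 gamma-linked members were above 0, with a median of 0.26, against a median of -0.01 over 14372 genes, of which 48.6% lay above 0. These comparisons are with genes of every length, and the values by length are given below. The gamma-linked members counted in ECs had a median span of 11.45 kb, against 27.96 kb over all genes counted there. Members were counted in a cell type where both libraries together held at least 50 UMIs, and a member was called past the size rule where its CPM differed by more than 1.5-fold. The minimum was met by 34 members in at least 1 cell type.

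In ECs 34 members were counted, of which 1 was past 1.5-fold higher (5.99% of all genes were) and 4 were past 1.5-fold lower (4.5% of all genes). Isg15 was the member past the rule upward, and Irf7, Ifit2, Oas2 and Eif2ak2 were those past it downward. All 5 intervals left 0 outside. Counts of 1 and 4 among 34 members were too small to be read against these shares. Under alternatives the downward ratios came as near to 0 as -0.21 (Irf7), -0.57 (Ifit2), -0.31 (Oas2) and -0.49 (Eif2ak2), each within 1.5-fold. The Isg15 ratio stayed at 0.76 or higher.

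The transducers of the type I signal are STAT2 and IRF9, which are parts of ISGF3, and IRF7, the factor that amplifies type I interferon production. In ECs, Stat2 (chromosome 10, 128270559 to 128292849) had 517 UMIs (173 CPM) in the control and 345 UMIs (119 CPM) in the PD-1 inhibitor library, a ratio of -0.54 (-0.74 to -0.34), and in fibroblasts 140 and 110 CPM, a ratio of -0.35 (-0.57 to -0.12). In MPs it stood at 176 and 181 CPM. Stat2 was thus lower beyond counting error in ECs and fibroblasts and level in MPs, and at -0.54 it stayed within 1.5-fold. Irf7 in ECs had 118 UMIs (39.6 CPM) in the control and 70 UMIs (24.1 CPM) in the PD-1 inhibitor library, a ratio of -0.71 (-1.16 to -0.27) that was -0.21 when each nucleus was thinned to 500 UMIs. MPs had 44.9 and 61.6 CPM of Irf7, a ratio of 0.46 (-0.08 to 0.99). The gene overlaps Phrf1 on the other strand, and whether the counting used strand is not given in the sources used here. Irf9 in ECs was at 87.5 and 72.1 CPM, a ratio of -0.28 (-0.55 to -0.01), and it shares part of its span with Rnf31 on the same strand.

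Isg15 encodes a ubiquitin-like protein that is joined to other proteins after interferon, and Usp18 encodes the protease that removes it and also restrains the type I receptor. Isg15 (chromosome 4, 156199424 to 156200818), the gene with the 3 overlapping ISRE cores shown above, had 51 UMIs (17.1 CPM) in control ECs and 91 UMIs (31.4 CPM) in PD-1 inhibitor ECs, a ratio of 0.87 (0.37 to 1.40). A UMI of Isg15 was present in 1.60% of control and 2.74% of PD-1 inhibitor EC nuclei, and after thinning in 0.817% and 1.23%. No cell type is known to lack the interferon response genes, and the lowest shares of nuclei with an Isg15 UMI among the 6 large types, in mural cells, were 0.337% and 0.95% at a median of 967 and 974 UMIs per nucleus, against 898 and 952 in ECs. Fibroblasts had 32 and 25 UMIs (10.7 and 10.1 CPM), a ratio of -0.08 (-0.91 to 0.71), and mesothelial cells 21 and 31 UMIs (26.6 and 29.9 CPM), a ratio of 0.16 (-0.68 to 1.04). After thinning, which left fewer UMIs, these became -1.18 in fibroblasts and 0.97 in mesothelial cells. Usp18 stood at 42.6 and 42.1 CPM in ECs, a ratio of -0.02 (-0.39 to 0.35). CMs had 48 control and 61 PD-1 inhibitor UMIs of Usp18 (19.9 and 30.3 CPM), a ratio of 0.60 (0.04 to 1.18) that became 0.05 after thinning. In MPs its counts were 68 and 28 UMIs (50.9 and 27.8 CPM), a ratio of -0.86 (-1.56 to -0.22). Usp18 overlaps Gm44148 on the other strand.

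The IFIT proteins bind foreign RNA ends and block their translation. Ifit2 in ECs had 166 control UMIs (55.6 CPM) and 93 PD-1 inhibitor UMIs (32.1 CPM), a ratio of -0.79 (-1.18 to -0.42), the lowest of the 34 members counted in ECs. The EC cluster led by Sall1 and Nrg1 (1380 and 1482 nuclei) held 33 and 34 of these UMIs, a ratio of -0.17 (-0.91 to 0.57). The neighbours of Ifit2 on chromosome 19 did not share its direction in ECs. Ifit1 stood at 37.2 and 45.5 CPM in ECs, a ratio of 0.29 (-0.08 to 0.67), and Ifit3 at 32.2 and 39.7 CPM, a ratio of 0.30 (-0.10 to 0.71). Mesothelial cells had the highest level of both Ifit1 (70.8 and 67.5 CPM) and Ifit3 (70.8 and 49.1 CPM) in both libraries. In MPs Ifit2 rested on 29 and 38 UMIs (21.7 and 37.8 CPM), a ratio of 0.79 (0.06 to 1.55) that became 0.18 after thinning. The MP cluster led by Cd209a and Klri1 (132 and 82 nuclei) supplied 2 and 15 of these UMIs, while the cluster led by Ms4a14 and Ms4a7 (1124 and 801 nuclei) had 27 and 23, a ratio of 0.19 (-0.69 to 1.04). Fibroblast Ifit3 had 66 and 80 UMIs, a ratio of 0.54 (0.06 to 1.04). Ifit1 and Ifit3 have near-identical copies beside them, between which reads may have been divided.

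Among the RNA sensors and their effectors, RIG-I (Ddx58) and MDA5 (Ifih1) recognise viral RNA, TRIM25 activates RIG-I, PKR (Eif2ak2) halts translation on double-stranded RNA, ADAR edits it, and the OAS proteins make the messenger that switches on RNase L. In ECs Eif2ak2 had 377 UMIs (126 CPM) in the control and 240 UMIs (82.8 CPM) in the PD-1 inhibitor library, a ratio of -0.61 (-0.85 to -0.37), and in fibroblasts 81.0 and 61.2 CPM, a ratio of -0.40 (-0.71 to -0.11) that became -0.87 after thinning. It was level in MPs at 141 and 142 CPM. Ddx58 in ECs was at 143 and 102 CPM, a ratio of -0.49 (-0.71 to -0.27), while Ifih1 was at 124 and 110 CPM, a ratio of -0.17 (-0.39 to 0.05). Ddx58 lay above 0 in other types, at 0.47 in CMs, 0.43 in T cells and 0.29 in mural cells, with intervals that held 0. B cells held 62 control and 6 PD-1 inhibitor UMIs of Ddx58 (228 and 59.2 CPM), a ratio of -1.84 (-3.45 to -0.74), in a type that had 93 PD-1 inhibitor nuclei. MPs had 237 and 116 UMIs of Trim25 (177 and 115 CPM), a ratio of -0.62 (-0.96 to -0.30), and fibroblasts 77.3 and 56.3 CPM, a ratio of -0.45 (-0.77 to -0.15) that became -0.07 after thinning. Trim25 was at 0.26 in CMs and 0.29 in mesothelial cells, with intervals that held 0. Adar was at 41.9 and 29.3 CPM in CMs, a ratio of -0.51 (-1.003 to -0.04), and its 36 and 15 UMIs in mural cells gave -0.71 (-1.71 to 0.17), while in mesothelial cells it was at 0.27 with an interval that held 0.

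Oas2 (chromosome 5, 120730333 to 120749853) was a gene of MPs, with 448 and 389 CPM there, a ratio of -0.20 (-0.39 to -0.02), and between 10.4 and 73.4 CPM in ECs, fibroblasts, CMs and mesothelial cells. Its ratio was below 0 in each of the 5 types in which it was counted. EC counts were 219 and 134 UMIs (73.4 and 46.2 CPM), a ratio of -0.67 (-0.99 to -0.35). Mesothelial counts were 39 and 23 UMIs (49.3 and 22.2 CPM), a ratio of -1.14 (-1.96 to -0.37). CM counts were 42 and 21 UMIs, a ratio of -0.72 (-1.57 to 0.05). Within the ECs its level differed by cluster, so the mix of clusters bears on the EC value. The cluster led by Aplnr and Gm12002 (987 control and 699 PD-1 inhibitor nuclei) had 180 and 158 CPM of Oas2, and the cluster led by Sall1 and Nrg1 (1380 and 1482 nuclei) 15.3 and 8.02 CPM. With the clusters given the same weight in both libraries the EC ratio of Oas2 was -0.31. Oasl2, an OAS-like gene, was highest in mesothelial cells, at 592 CPM in the control and 585 CPM in the PD-1 inhibitor library, followed by MPs at 231 and 215 CPM. Oas1a was highest in MPs at 81.6 and 88.4 CPM, a ratio of 0.12 (-0.30 to 0.53), and belongs to a family of close copies. Oas3 was not counted in any cell type and had 52 control and 18 PD-1 inhibitor UMIs over all nuclei, a ratio of -1.27 (-2.16 to -0.50), with 13 and 3 of them in T cells.

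Among the membrane proteins that act on virus entry and release, IFITM3 blocks fusion of viruses with endosomes, and tetherin (Bst2) holds budding virus at the cell surface. Ifitm3 (chromosome 7, 141009586 to 141010770) had 1339 UMIs (449 CPM) in control ECs and 1772 UMIs (611 CPM) in PD-1 inhibitor ECs, a ratio of 0.45 (0.34 to 0.55). Fibroblasts had 334 and 477 CPM, a ratio of 0.51 (0.39 to 0.64), and CMs 143 and 221 UMIs (59.3 and 110 CPM), a ratio of 0.89 (0.58 to 1.203). MPs had 231 and 333 CPM, a ratio of 0.52 (0.30 to 0.75). Mural cells (172 and 247 CPM, ratio 0.52) and mesothelial cells (506 and 651 CPM, ratio 0.36) lay on the same side. In all 6 types the interval left 0 outside, and only in CMs was the ratio past 1.5-fold. The summed EC markers in CM nuclei were 654 CPM in the control and 895 CPM in the PD-1 inhibitor library, and MP markers 385 and 459 CPM. Their part in the CM ratio was not tested. In mesothelial cells the ratio became 0.15 after thinning, and the small fibroblast cluster led by Chad and Wif1 lay on the other side with 28 and 14 UMIs of Ifitm3, a ratio of -1.16 (-2.22 to -0.21). Shares of nuclei pointed the same way, with an Ifitm3 UMI after thinning in 17.02% of control and 23.3% of PD-1 inhibitor EC nuclei and in 2.43% and 4.81% of CM nuclei. Bst2 was highest in ECs, at 770 and 947 UMIs (258 and 327 CPM), a ratio of 0.34 (0.20 to 0.48). In fibroblasts it stood at 103 and 139 CPM, a ratio of 0.44 (0.21 to 0.67), and in MPs at 159 and 165 CPM, a ratio of 0.05 (-0.25 to 0.35). Mural cells (0.09) and mesothelial cells (0.25) had Bst2 intervals that held 0. The EC ratio of Bst2 became 0.70 after thinning. Thinned shares of EC nuclei with a Bst2 UMI were 9.59% and 14.9%.

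Rsad2 (viperin, an enzyme that makes a nucleotide which ends viral RNA chains) was a gene of ECs in both libraries. It had 230 and 180 UMIs there (77.1 and 62.1 CPM), a ratio of -0.31 (-0.60 to -0.02), of which 185 and 150 UMIs were in the cluster led by Aplnr and Gm12002. In that cluster its level was 196 CPM in the control and 226 CPM in the PD-1 inhibitor library, and with the same mix of clusters in both libraries the EC ratio of Rsad2 turned to 0.05. MPs had 33 and 44 UMIs of Rsad2 (24.7 and 43.7 CPM), a ratio of 0.82 (0.14 to 1.52). The cluster led by Cd209a and Klri1 held 1 and 11 of those UMIs. In the cluster led by Ms4a14 and Ms4a7 the ratio was 0.46 (-0.29 to 1.21). Fibroblasts had 30 and 39 UMIs of Rsad2 (10.04 and 15.7 CPM), a ratio of 0.64 (-0.08 to 1.38), and their clusters lay on opposite sides, at 1.51 (14 and 26 UMIs) in the one led by Rgs17 and Fbn2 and -0.69 (16 and 11 UMIs) in the one led by Cilp and Myoc.

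Of the remaining type I-linked members, Ifi27, a small mitochondrial and nuclear membrane protein, differed most between types. Adipocytes had 1413 CPM in the control (510 UMIs) and 1873 CPM in the PD-1 inhibitor library (105 UMIs), against 277 to 336 CPM in mesothelial cells, the next type. In CMs Ifi27 had 346 and 431 UMIs (143 and 214 CPM), a ratio of 0.58 (0.37 to 0.79), just inside the 1.5-fold rule, and T cells with 33 and 43 UMIs had 0.64 (-0.04 to 1.35), just past it. Mesothelial cells lay on the other side, at 336 and 277 CPM, a ratio of -0.28 (-0.53 to -0.04). Ifi35, Ifi44 and Xaf1 had intervals that held 0 in every type in which they were counted. PARP9 and its partner DTX3L modify histones in the interferon response, and PARP14 is a related enzyme. Parp14 was highest in MPs, at 310 and 299 CPM, a ratio of -0.05 (-0.27 to 0.17). Mural cells had 66 and 23 UMIs of Parp14 (95.7 and 48.1 CPM), a ratio of -0.97 (-1.75 to -0.29), and B cells 51 and 8 UMIs (188 and 79.0 CPM), a ratio of -1.18 (-2.54 to -0.16). Parp9 in MPs was at 169 and 126 CPM, a ratio of -0.42 (-0.75 to -0.10). Parp9 and Dtx3l overlap each other on opposite strands.

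**Figure D3:**
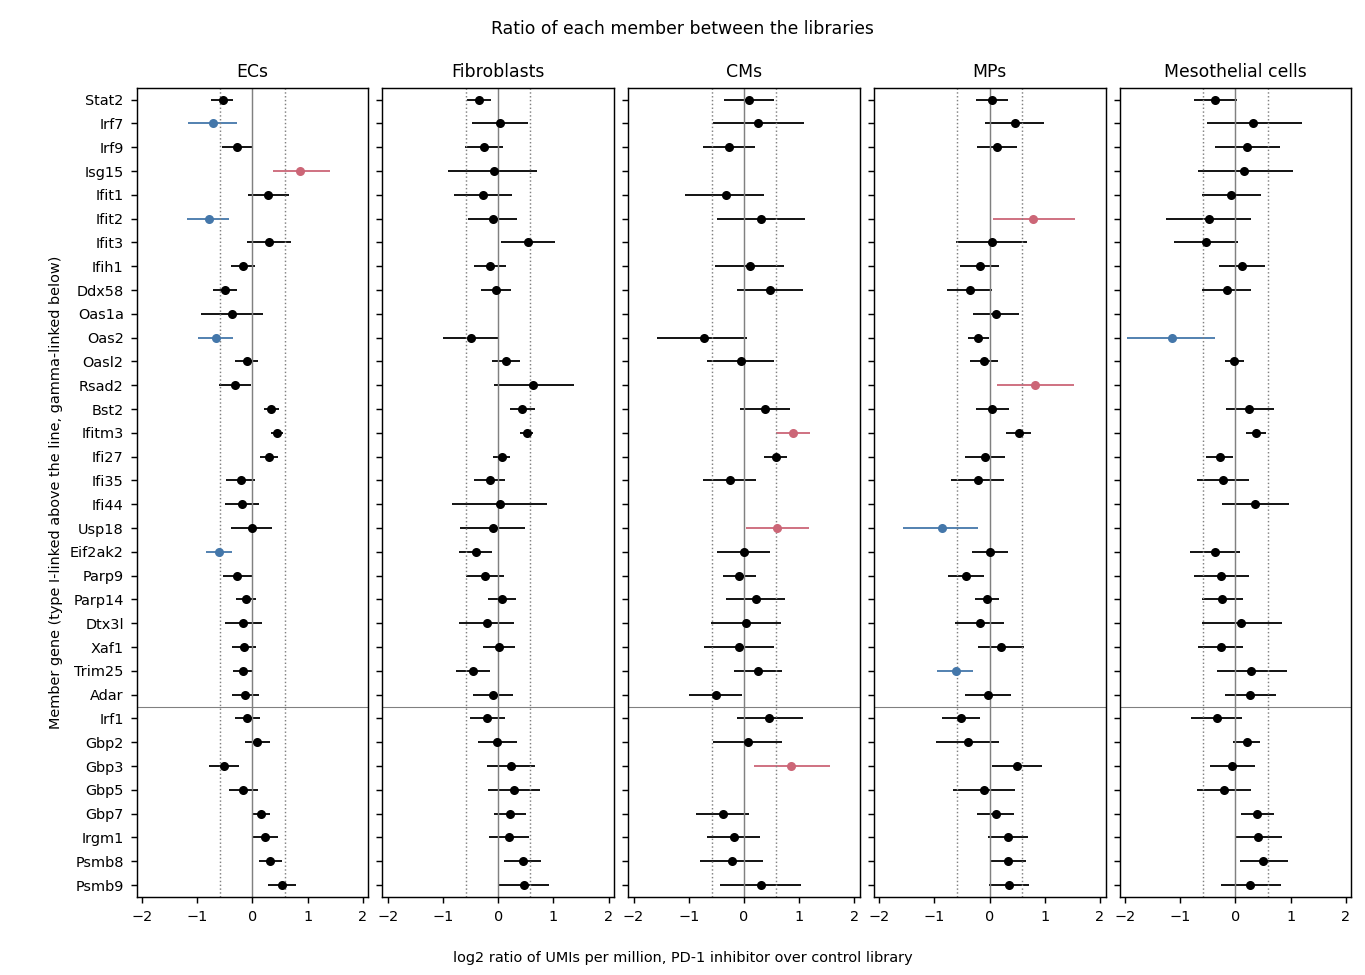
Log2 ratio of CPM, PD-1 inhibitor over Control, of each counted member (rows, Oas3 left out) in ECs, fibroblasts, CMs, MPs and mesothelial cells (panels), with the exact interval for counting error as a bar and dotted lines at 1.5-fold. Red and blue points are past 1.5-fold higher and lower with an interval off 0. Ifitm3 lies right of 0 in all 5 panels, and in the EC panel Isg15 (0.87) and Ifit2 (-0.79) are the extremes.

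Among the gamma-linked genes IRF1 is the transcription factor through which much of the gamma response runs. T cells had its highest level in both libraries, at 185 and 228 CPM (44 and 45 UMIs), a ratio of 0.30 (-0.33 to 0.93). In MPs Irf1 (chromosome 11, 53770014 to 53778374) had 206 control UMIs (154 CPM) and 108 PD-1 inhibitor UMIs (107 CPM), a ratio of -0.52 (-0.87 to -0.18). ECs were level at 120 and 113 CPM, a ratio of -0.09 (-0.31 to 0.13). Irf1 was thus the 1 gamma-linked member with a ratio below 0 over all nuclei, at -0.11 (-0.25 to 0.02).

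Guanylate-binding proteins and the GTPase IRGM1 coat and break open the vacuoles of intracellular microbes. Gbp7 in ECs had 639 and 690 UMIs (214 and 238 CPM), a ratio of 0.15 (-0.01 to 0.31), and in mesothelial cells 150 and 259 UMIs (190 and 250 CPM), a ratio of 0.39 (0.10 to 0.70). Gbp2 was highest in mesothelial cells, at 229 and 346 UMIs (290 and 333 CPM), a ratio of 0.20 (-0.04 to 0.45), followed by ECs at 108 and 115 CPM. Gbp3 differed in direction between types. In ECs it had 282 and 192 UMIs (94.5 and 66.2 CPM), a ratio of -0.51 (-0.79 to -0.24), in MPs 83 and 88 UMIs (62.1 and 87.4 CPM), a ratio of 0.49 (0.04 to 0.94), and in CMs 31 and 47 UMIs (12.8 and 23.3 CPM), a ratio of 0.85 (0.18 to 1.56) that was 0.28 as a mean over nuclei. The CM cluster led by Mybphl and Bmp10 held 0 and 8 of those Gbp3 UMIs. Whether those ratios differ from each other was not tested. Gbp5 held 0 in its interval in every type in which it was counted, as did Irgm1 in fibroblasts, CMs, MPs and mesothelial cells, while Irgm1 in ECs stood at 97.2 and 114 CPM, a ratio of 0.23 (0.00 to 0.46) that became -0.03 after thinning. The Gbp genes lie side by side as similar copies.

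Gbp4 and Igtp, listed at 0 in both libraries, have nearly all of their span inside a longer gene of the same strand. Gbp4 (chromosome 5, 105115767 to 105139586) has all but 46 bases within Gbp8, which had 2155 UMIs, and Igtp (chromosome 11, 58199556 to 58207591) has all but 62 bases within Irgm2, which had 2196 UMIs. Of 586 protein-coding genes with at least 99% of their span inside a longer gene of the same strand, 558 (95.2%) were listed at 0, against 14.9% of the 21334 others. No level of Gbp4 or Igtp can therefore be read from these zeros.

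PSMB8 and PSMB9 replace catalytic subunits of the proteasome after interferon gamma, which alters the peptides shown to T cells. The largest ratio of any counted gamma-linked member was Psmb8 in T cells (chromosome 17, 34197721 to 34201454), with 53 UMIs (223 CPM) in the control and 98 UMIs (496 CPM) in the PD-1 inhibitor library, a ratio of 1.15 (0.66 to 1.66). A Psmb8 UMI was present in 12.97% of 239 control and 30.6% of 193 PD-1 inhibitor T cell nuclei, and after thinning in 8.37% and 18.7%. No T cell nucleus held more than 7 of these UMIs. CM nuclei, the lowest among the 4 largest types, had a Psmb8 UMI after thinning in 1.18% and 1.30%, at a median of 1404 and 1431 UMIs per nucleus against 846 and 884 in T cells. In T cell nuclei Psmb9 had 49 and 29 UMIs (206 and 147 CPM), a ratio of -0.48 (-1.204 to 0.20), on the other side of 0 from Psmb8. In ECs, fibroblasts and MPs both subunits lay above 0. ECs had 118 and 148 CPM of Psmb8, a ratio of 0.33 (0.12 to 0.54), and 75.8 and 110 CPM of Psmb9, a ratio of 0.54 (0.29 to 0.79). In fibroblasts the ratios were 0.44 (0.11 to 0.78) and 0.47 (0.02 to 0.93), and in MPs 0.34 (0.02 to 0.66) and 0.35 (-0.02 to 0.72). Mesothelial Psmb8 had 69 and 129 UMIs (87.3 and 124 CPM), a ratio of 0.51 (0.08 to 0.95). B cell Psmb9 had 37 and 23 UMIs (136 and 227 CPM), a ratio of 0.75 (-0.08 to 1.53). CMs were at 26.5 and 22.8 CPM of Psmb8, a ratio of -0.21 (-0.79 to 0.35). Psmb9 overlaps Tap1, and Psmb8 overlaps Gm20496 (52 UMIs in the deposited tables), on the other strand.

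Outside ECs the counts past the size rule were as follows. In fibroblasts 33 members were counted, with 1 higher (Rsad2; 5.62% of all genes) and 0 lower (4.02% of all genes). In CMs 28 were counted, with 3 higher (Ifitm3, Usp18 and Gbp3; 8.29%) and 1 lower (Oas2; 8.15%). MPs had 31, with 2 higher (Ifit2 and Rsad2; 7.1%) and 2 lower (Usp18 and Trim25; 6.61%). Among 13 members in mural cells, 0 were higher (7.89%) and 2 lower (Parp14 and Adar; 8.7%). Among 31 in mesothelial cells, 0 were higher (5.88%) and 1 was lower (Oas2; 6.18%). T cells had 7 counted members, with 2 higher (Ifi27 and Psmb8; 10.4%) and 0 lower (12.9%). B cells had 6, with 1 higher (Psmb9; 12.3%) and 3 lower (Stat2, Ddx58 and Parp14; 18.6%). These counts were small and near the shares of all genes in most types, so the size rule marks single genes and gives no result about the lists.

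Many members were most abundant in the same cell type of both libraries. The cell type with the highest CPM was the same in both libraries for 19 of 35 members over 9 types. For 13 members it was also the same by thinned share of nuclei. These were Ifit1, Ifit3, Oasl2 and Gbp2 in mesothelial cells, Oas1a, Oas2 and Parp14 in MPs, Rsad2 and Bst2 in ECs, Oas3, Irf1 and Psmb8 in T cells, and Ifi27 in adipocytes. Neighbours in the order often lay close. For Oas3 in the PD-1 inhibitor library T cells had 15.2 CPM and MPs 11.9 CPM. For Xaf1 ECs had 136 and 122 CPM and mesothelial cells 124 and 103 CPM, whereas for Oas2 the type after MPs had 73.4 and 49.4 CPM.

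Within cell types the lists also differed by cluster, as the plot of list levels in 13 clusters shows. The EC cluster led by Aplnr and Gm12002 had the highest type I-linked sum of the 5 EC clusters, at 3850 and 3913 CPM, and a gamma-linked sum of 1327 and 1426 CPM. The cluster led by Sall1 and Nrg1 had 2488 and 2618 CPM and 704 and 807 CPM. In the small EC cluster led by Wnt9b and Hapln1 (114 control and 101 PD-1 inhibitor nuclei) the gamma-linked sum was 349 CPM in the control (55 UMIs) and 766 CPM in the PD-1 inhibitor library (141 UMIs), a ratio of 1.13 (0.67 to 1.61). There Irf1 had 7 and 28 UMIs and Gbp2 5 and 21, while the type I-linked sum lay on the other side, at 2323 and 1912 CPM, a ratio of -0.28 (-0.50 to -0.07). The EC cluster led by Sema3g and Mannr (98 and 74 nuclei) showed the same opposition, with a type I-linked ratio of -0.36 (-0.58 to -0.14) and a gamma-linked ratio of 0.51 (0.12 to 0.91). In the CM cluster led by Mybphl and Bmp10 (41 nuclei in each library) the type I-linked sum was 646 and 1292 CPM from 39 and 103 UMIs, a ratio of 0.99 (0.45 to 1.57). These clusters were picked after their values were seen, and the other clusters of ECs, fibroblasts and MPs had type I-linked ratios between -0.04 and 0.24.

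**Figure D4:**
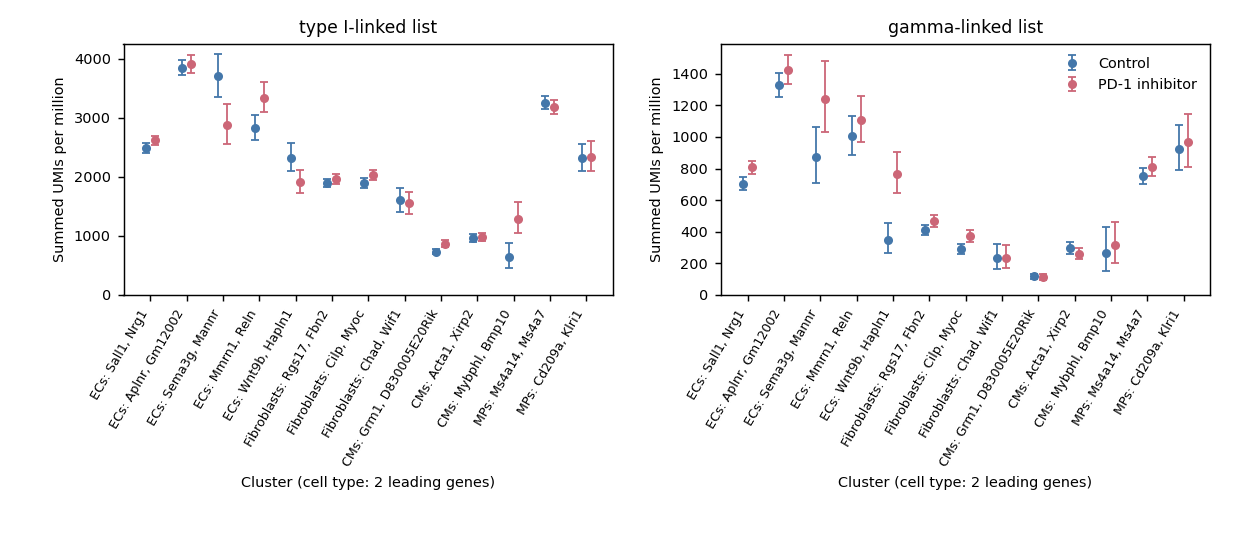
Summed CPM of the type I-linked and gamma-linked lists in the 13 clusters of ECs, fibroblasts, CMs and MPs, named by their leading genes, with the Control and the PD-1 inhibitor library side by side and exact Poisson intervals. The EC cluster led by Wnt9b and Hapln1 has the widest gamma-linked gap (349 and 766 CPM), and CM clusters lie lowest in the type I-linked list.

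Nuclei were also counted by how many members they held. At least 3 different type I-linked members were present in 26.5% of control and 28.1% of PD-1 inhibitor nuclei, and after thinning each nucleus to 500 UMIs in 8.93% (8.36% to 9.52%) and 8.40% (7.79% to 9.04%). Thinned shares were 13.9% and 13.05% in ECs, 14.4% and 13.1% in MPs, 12.1% and 13.4% in mesothelial cells, and 0.785% and 0.740% in CMs. The intervals of both libraries overlapped in each of these 4 types. In mesothelial cells depth differed between the libraries, and their unthinned shares were 49.2% and 60.2% with a median of 1298 and 1724 UMIs per nucleus. The highest number of type I-linked members in 1 nucleus was 19 in each library.

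The rest of the pathway was followed in 44 genes that are not members. All 44 had rows, and 30 had at least 50 UMIs over all nuclei. Of the ligands, Ifnb1, Ifna1, Ifna2, Ifna4, Ifna5, Ifnk, Ifne and Ifnl3 had no UMI, and Ifnz had 0 and 1. No UMI allows up to 0.248 CPM in the control and 0.292 CPM in the PD-1 inhibitor library (3 counts). Ifnl2 was also listed at 0, but it lies whole within Samd4b on the same strand. No level of Ifnl2 can therefore be read from its zeros. Ifng, which encodes interferon gamma, had 18 control and 20 PD-1 inhibitor UMIs, of which 16 and 19 were in T cells. Ifngr1, the ligand-binding chain for interferon gamma, stood at 188 and 217 CPM over all nuclei, a ratio of 0.21.

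Of the pathway genes 25 were counted in ECs, with 0 past 1.5-fold in either direction, where 5.99% of all genes were higher and 4.5% lower. In the other types the shares of all genes are those given above for the members, and the counts of pathway genes were too small to be read against them. Fibroblasts had 1 of 26 higher, Tlr3, a sensor of double-stranded RNA (73 and 108 UMIs, ratio 0.83). CMs had 2 of 20 higher (Ifnlr1 and Ticam1) and 1 lower, Stat3, a transducer of interleukin signals, at 179 and 103 CPM, a ratio of -0.80 (-1.05 to -0.56). MPs had 1 of 27 higher (Zbp1) and 1 lower, Socs3, an inhibitor of cytokine receptors (54 and 21 UMIs, ratio -0.93). Mesothelial cells had 1 of 21 higher and 3 lower. The former was Ifnar2, a chain of the type I receptor, with 27 control and 89 PD-1 inhibitor UMIs (34.2 and 85.8 CPM), a ratio of 1.31 (0.69 to 2.01), and the latter were Jak2, Tyk2 and Tmem173. T cells had 1 of 12 higher (Jak1, 97 and 130 UMIs) and 3 lower (Pias1, Irf2 and Ikbke), and B cells 0 of 8 higher and 3 lower (Jak2, Stat3 and Tbk1). Irf8 and Myd88 were listed at 0, and each lies whole within a longer gene of its strand.

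The side on which a member lay moved with the length of its gene, and so did that of all genes. The Spearman correlation between genomic span and log2 ratio was -0.37 over 10709 genes and -0.52 over 34 members in ECs, -0.35 and -0.39 in fibroblasts and -0.33 and -0.45 in MPs, but -0.41 and -0.12 in CMs and -0.06 and -0.30 in mesothelial cells. These are descriptions across genes of the same 2 libraries, and genes are not replicates. Genes were also split by span into 5 groups of equal number. In the shortest group of EC genes (up to 9.71 kb) the median ratio of all genes was 0.22 and that of 11 members, Isg15, Ifitm3, Bst2, Psmb8 and Psmb9 among them, was 0.30. The next 2 groups, up to 20.5 and 38.0 kb, had medians of 0.09 and 0.02 over all genes, against -0.18 for 12 members and -0.38 for 8 members, the latter holding Stat2, Ifit2, Ddx58 and Eif2ak2. In both of these groups the median of the members thus lay below that of genes of like span. The part of gene length in the single ratios was not tested.

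**Figure D5:**
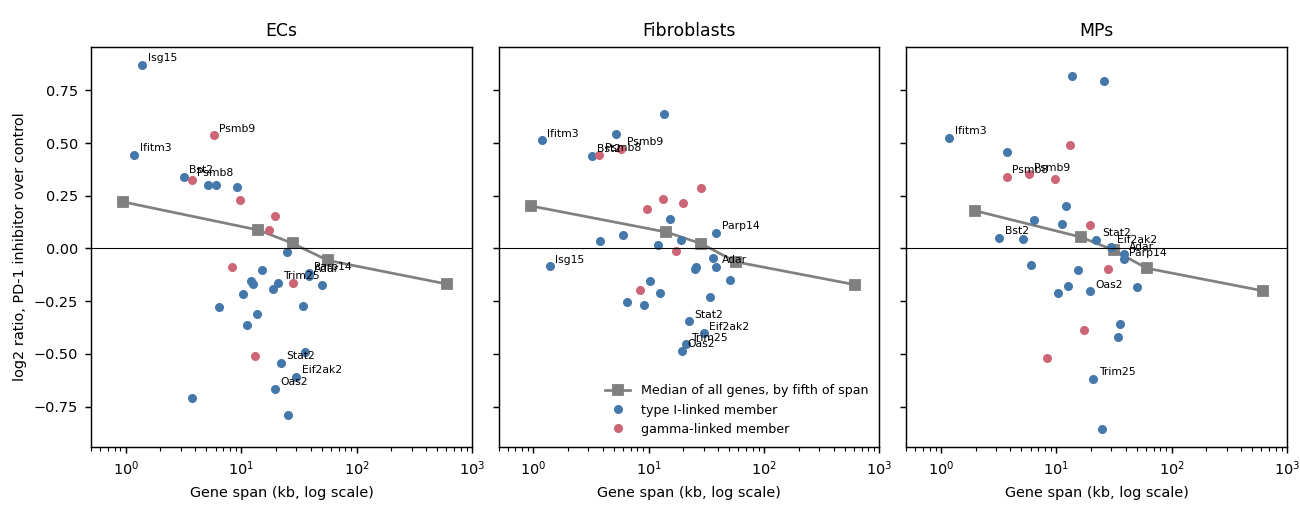
Log2 ratio of CPM, PD-1 inhibitor over Control, of each counted member (points) against the genomic span of the gene in kb (log axis) in ECs, fibroblasts and MPs, with the median of all genes in each of 5 groups of span as grey squares. The squares fall from 0.22 to -0.17 in ECs, and Isg15 and Ifitm3, with short spans, lie above them, whereas Irf7 (-0.71 in ECs), also short, lies far below.

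Members with an ISRE core in the promoter window had a median ratio of -0.04 in ECs (16 members) against -0.16 without one (13 members), and 0.19 (15 members) against -0.09 (13 members) in fibroblasts. In MPs both medians were near 0, at 0.05 and 0.06. The order was the opposite in mesothelial cells, at 0.03 (14 members) with the core and 0.21 (13 members) without it, and in mural cells, at -0.22 (7 members) and 0.06 (3 members), so no direction was shared by the types. Values of both kinds overlapped widely in ECs, from -0.61 to 0.87 with the core and from -0.79 to 0.54 without it. Of the members with a core whose sequences are shown above, Isg15, Bst2, Ifit1 and Gbp7 lay above 0 in ECs. The intervals of Ifit1 and Gbp7 held 0. Rsad2, with 1 core like Gbp7, lay below 0, except with the mix of clusters held the same.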

How the data were processed

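The authors deposited, for each of the 2 libraries of heart nuclei, integer UMI counts (genes by barcodes, not normalized) of 10197 control and 7967 PD-1 inhibitor barcodes. The submitters' processing notes name GRCm38 (mm10). The aligner, the counting software and the use of strand are not given in the sources used here. Barcodes needed 200 genes or more and a mitochondrial share of 20% or less, doublets were removed with scanpy 1.11.5, and the 9522 and 7644 nuclei left (12103951 and 10290085 UMIs) were clustered without the members and pathway genes (2000 variable genes, 30 components, 15 neighbours, Leiden resolution 1). Clusters took a cell type from lists of markers. The mononuclear phagocytes included a cluster led by Cd209a and Klri1. Counts were summed per gene, type and library and divided by the total of all genes. CPM intervals were exact Poisson, shares exact Clopper-Pearson, and ratios exact conditional binomial intervals, computed with scipy 1.17.1. PCR and free RNA lie outside these intervals. The computation was tested on simulated data. Zero values allow up to 3 counts. Spans were those of GENCODE vM21, and promoter windows those of RefSeq on GRCm38.p6, with 31 of 39 members matched.

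The members and lists were chosen with earlier results of these data known. Members were described in a cell type where both libraries held at least 50 UMIs together, and in full where they were past 1.5-fold with an interval off 0 or among the 3 of a list with the most UMIs. Members under that minimum in every type were given over all nuclei. Values of 1 pathway gene are not reported here. Clusters and pairs of members within nuclei were picked after their values were seen. With 1 library per group no test between groups was possible. Alternatives changed the filters, doublets, clustering, denominators, depth, mix of clusters and thresholds 1 at a time.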

Additional observations from a re-analysis of the deposited data

Results flagged for a closer look

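A pair of genes lay past 1.5-fold on opposite sides in 2 cell types, with both intervals off 0. Ifit2 had a log2 ratio of -0.79 in ECs (166 and 93 UMIs) and 0.79 in MPs (29 and 38 UMIs). The EC cluster led by Sall1 and Nrg1 held 33 and 34 of the EC UMIs, a ratio of -0.17 (-0.91 to 0.57). The MP value rested on the small cluster led by Cd209a and Klri1 (2 and 15 UMIs), and in the main MP cluster Ifit2 had 27 and 23 UMIs, a ratio of 0.19 (-0.69 to 1.04). Usp18 had 0.60 in CMs (48 and 61 UMIs) and -0.86 in MPs (68 and 28 UMIs). With 1 library per group the difference between the cell types was not tested. After each nucleus was thinned to 500 UMIs, Ifit2 in MPs stood at 0.18 and Usp18 in CMs at 0.05, while Ifit2 in ECs and Usp18 in MPs stayed between -1.005 and -0.57 and between -1.03 and -0.62 under all 13 alternatives.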

How the results depend on the processing

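Each ratio was recomputed under 13 alternatives, 1 of which, leaving out the barcodes that both libraries hold, was chosen after seeing the data. None of the 17 member ratios past 1.5-fold with an interval off 0 turned its direction, and 2 of 221 recomputed values lay outside the counting interval. All alternatives used the same 2 libraries, and many intervals were wide, so values inside them could still move far. Usp18 in CMs went from 0.60 to 0.05 and Ifit2 in MPs from 0.79 to 0.18, each inside its interval. Of 234 recomputed list ratios 226 stayed within theirs. Thinning to 500 UMIs put the type I-linked ratio at 0.0163 over all nuclei and 0.0281 in ECs, and the gamma-linked ratio at 0.157 over all nuclei and -0.172 in CMs. As a mean over nuclei the type I-linked ratio over all nuclei was 0.0183. With the same mix of clusters in both libraries the EC ratios were 0.0373 (type I-linked) and 0.197 (gamma-linked). With a 2-fold rule, counts of members past it fell to 0 in ECs (higher and lower), fibroblasts (higher), CMs (higher and lower), MPs (higher and lower), mural cells (lower) and B cells (higher), and to 1 in T cells (higher). With a minimum of 20 UMIs they were 4 higher of 35 counted in MPs, and 2 higher and 4 lower of 25 in mural cells. They were 2 higher of 34 in mesothelial cells, 5 lower of 23 in T cells and 4 higher of 21 in B cells. Shares of all genes were not computed with the 2-fold rule or the lower minimum, so these counts give no result about the lists. The cause of these moves was not tested, except that the stricter rule admits fewer genes and the lower minimum more. No paired analysis was possible because each group had 1 library. Depth limits B cells, adipocytes and glial cells most, and genes with few UMIs throughout.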

Other observations

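Some type I-linked members were found in the same nuclei more often than others, in a set of pairs chosen after their values were seen. After thinning to 500 UMIs, Ifit3 was present in 13.4% (7.69% to 21.1%) of the 112 control nuclei with an Ifit1 UMI and in 0.935% (0.75% to 1.15%) of those without one. In the PD-1 inhibitor library it was present in 10.6% (5.22% to 18.7%) of 94 nuclei with Ifit1 and 1.28% of those without. Isg15 was present in 6.25% and 7.45% of nuclei with Ifit1, in the control and the PD-1 inhibitor library, and in 0.595% and 0.649% of those without. Rsad2 was present in 8.04% and 10.6% of nuclei with Ifit1 and in 1.35% and 1.38% of those without. The editing enzyme gene Adar showed a smaller contrast, with 4.46% against 2.85% in the control and 5.32% against 2.65% in the PD-1 inhibitor library. Nuclei with Ifit1 had a median of 1086 UMIs before thinning in the control, against 1012 in those without it, and in the PD-1 inhibitor library of 1179.5 against 1053. Within ECs alone, Rsad2 was present in 9.52% (2.66% to 22.6%) of control nuclei with Ifit1 and 3.03% (2.42% to 3.74%) of those without. In PD-1 inhibitor ECs it was present in 8.70% (2.42% to 20.8%) and 2.84% (2.22% to 3.57%), so the intervals overlapped in both libraries. Ifit3 in ECs stood at 7.14% against 1.15% in the control and 10.9% against 1.58% in the PD-1 inhibitor library. The part of cell type and of depth in these shares was not tested.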
